A study of Rattus norvegicus with 10 samples.

Results

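The cells of the nucleus pulposus, the gel core of the intervertebral disc, descend from the notochord, and a short set of genes is used to recognise them. This account follows 10 of these marker genes, chosen by name: the transcription factors Tbxt and Foxf1, the keratins Krt8, Krt18 and Krt19, the surface proteins Cd24 and Cdh2, the enzyme Car3, the lectin Lgals3 and the membrane protein Basp1. Of the 10, 9 had a probeset named for them, 1 each, among 15037 named genes, and Foxf1 had none and is not analysed here. RNA was measured on whole-transcript arrays from rat nucleus pulposus cells 4 days after they received a lentivirus with a short hairpin RNA against Bnip3 (ShBNIP3, 5 arrays, numbered 6 to 10 by their titles) or a control hairpin in the pLKO.1 vector (ShCtrl, 5 arrays, numbered 1 to 5). Bnip3 encodes a mitophagy receptor, a protein of the mitochondrial surface that recruits the autophagy machinery. Both groups came from male Sprague Dawley rats of 300 g, aged 3 to 4 months, and both carried the virus, so untransduced cultures and fresh tissue are not part of the comparison. The labels give neither the number of animals or cultures nor their link to the arrays, so every p-value below reflects array-to-array spread alone, and that spread may be technical.

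Brachyury, the product of Tbxt, is the defining transcription factor of the notochord, and large vacuolated notochordal cells hold a network of keratin 8, 18 and 19 that other disc cells largely lack. N-cadherin (Cdh2) joins these cells into clusters, CD24 is a small sugar-coated protein anchored in their outer membrane, and galectin-3 (Lgals3) and carbonic anhydrase 3 (Car3) have been used to tell nucleus pulposus from the surrounding annulus fibrosus. Bnip3 itself was 11.14, 11.26, 10.59, 11.31 and 12.68 on ShBNIP3 arrays 6 to 10, against 14.29, 14.29, 13.94, 15.97 and 14.54 on ShCtrl arrays 1 to 5 (log2 values). Every ShBNIP3 array was lower than every ShCtrl array, and Bnip3 fell 9.26-fold (limma adjusted p = 0.00020). Arrays stood close together within a group, with mean Pearson correlations to the rest of their group near 0.992 for 8 arrays, 0.986 for ShBNIP3 array 10 and 0.983 for ShCtrl array 4. For several marker genes, results are therefore also given without 1 or both of these arrays.

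Only some of the genes that define the cell type were measurably expressed here. A gene was called above background in a group when its log2 value lay, on all 5 arrays, over the 95th percentile of that array's 23 antigenomic probesets, designed to match no genomic sequence, a level between 6.50 and 6.78. By that rule 4 of the 9 genes were above background in ShBNIP3 cells (Car3, Lgals3, Basp1 and Cdh2) and 3 in ShCtrl cells (Car3, Lgals3 and Basp1), where 48.2% and 48.3% of all named genes were. Tbxt and the 3 keratins were at background on all 10 arrays, as were 44.5% of named genes, and Cd24 lay near the limit. The label nucleus pulposus identity is thus not borne out for these cultures by Tbxt and the keratins, and the genes are called marker genes here for their use elsewhere. Over the higher level set by the 95th percentile of the 1153 probesets named as negative controls, 2 of the 9 genes were above background in ShBNIP3 and 2 in ShCtrl, Car3 and Lgals3. A probeset at background bounds the signal on this array and does not show that the transcript was absent.

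**Figure D1:**
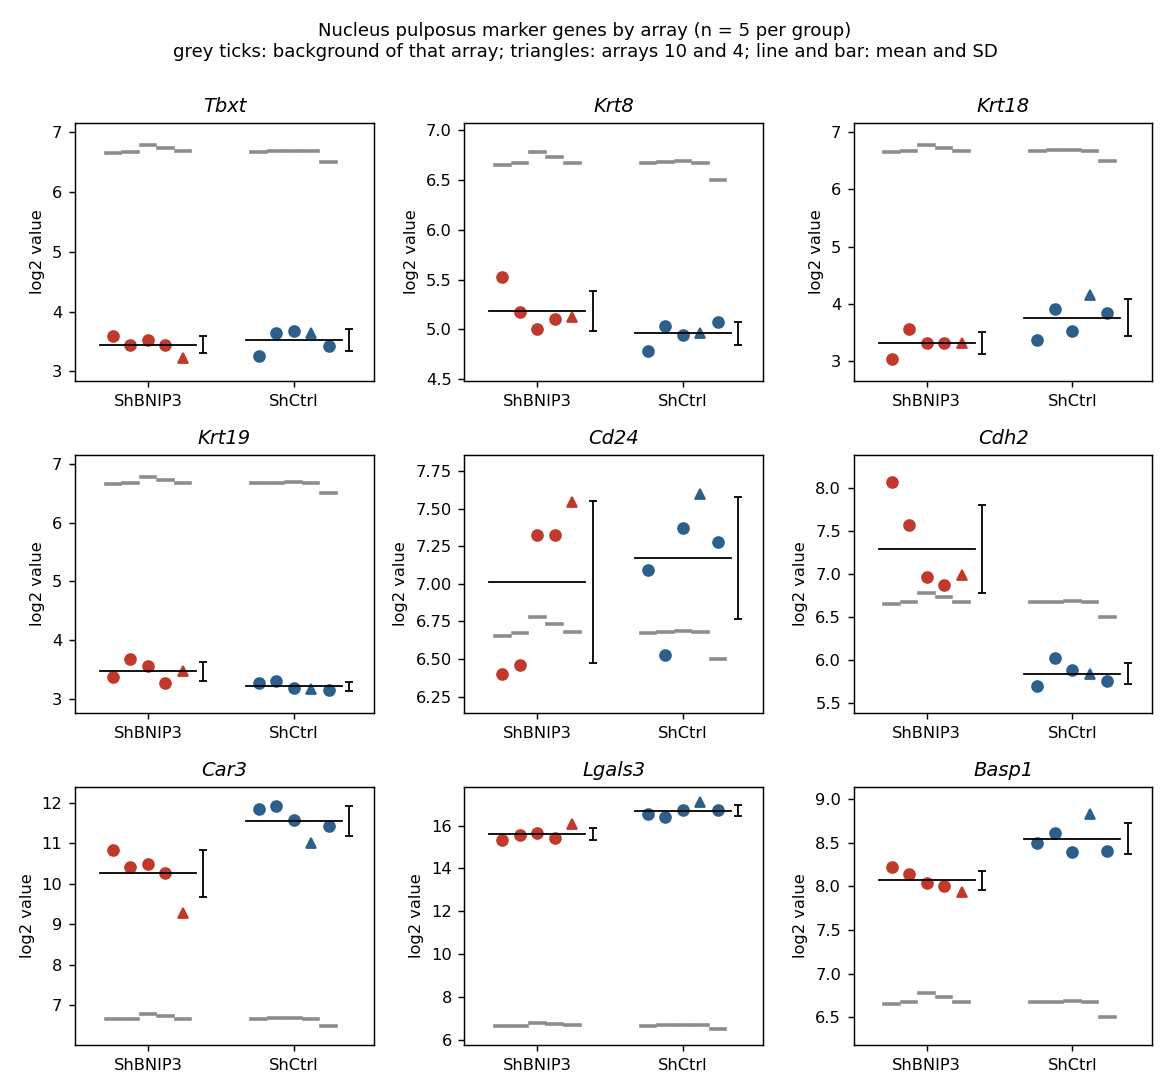
Log2 value of each marker gene (y axis) on the 5 ShBNIP3 arrays (left, red) and the 5 ShCtrl arrays (right, blue), with the mean (line), the SD (bar) and the background level of each array (grey ticks); each panel has its own y range. Tbxt and the keratins lie under the ticks on every array, Cdh2 lies over them on the ShBNIP3 arrays and under them on the ShCtrl arrays, and Car3, Lgals3 and Basp1 lie over them on all 10.

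Between the groups 4 of the 9 measured genes changed, with Cdh2 higher and Car3, Lgals3 and Basp1 lower in ShBNIP3 cells. In the limma fit over all 23188 probesets (Benjamini-Hochberg adjusted p under 0.05) 17.1% of named genes were called, and 30.2% of those above background on every array of a group. The share of 4 in 9 lies above 17.1%, but 9 genes are few and the difference was not tested. It is not comparable with the 30.2%, since only 4 of the 9 pass that filter. Those 4 are the called genes, and Cdh2 passes it through ShBNIP3 alone, the group where it is high. By direction 1 of 9 was higher, where 8.87% of named genes were, and 3 of 9 were lower, where 8.27% were. Without arrays 4 and 10, which stood furthest from their groups, the counts were again 1 and 3, while the shares of named genes were 11.3% higher and 10.9% lower, 22.2% in all. The same 4 genes were those whose groups did not overlap, which held for 14.2% of named genes. The median log2 difference of the 9 genes was -0.16, and that of all named genes was 0.03. In bulk RNA, fewer cells of a type and less RNA per cell cannot be told apart.

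**Figure D2:**
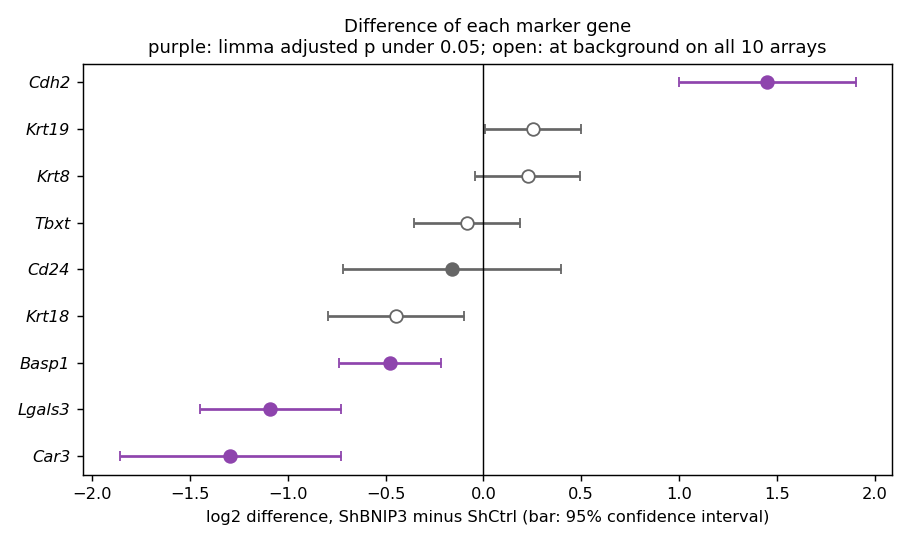
Log2 difference of each marker gene, ShBNIP3 minus ShCtrl (x axis), with its 95% confidence interval (bar), over 5 arrays per group. Cdh2 lies to the right at a fitted 1.45, with its ShCtrl arrays at background so that the size of its rise is only bounded, and Car3, Lgals3 and Basp1 lie to the left of 0 with intervals that do not reach it. The intervals are not adjusted for the number of probesets, and those of Krt18 and Krt19 also miss 0 though neither gene passed the adjusted test.

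The transcription factor Tbxt showed no measurable level in either group. Its log2 values were 3.59, 3.44, 3.53, 3.45 and 3.22 on ShBNIP3 arrays 6 to 10, and 3.26, 3.64, 3.67, 3.65 and 3.43 on ShCtrl arrays 1 to 5. The groups overlapped, and relative to the background level of each array the values lay between -3.46 and -3.01. The difference was -0.08 (SE 0.12, limma adjusted p = 0.75), with a 95% interval from -0.35 to 0.18.

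The keratins were also at background throughout. Krt8, the type II keratin that pairs with keratin 18 in simple epithelia and notochord, had 5.52, 5.18, 5.00, 5.11 and 5.12 in ShBNIP3 cells, against 4.78, 5.03, 4.94, 4.97 and 5.07 in ShCtrl cells. Its groups overlapped and averaged -1.52 in ShBNIP3 and -1.68 in ShCtrl relative to background (difference 0.23, SE 0.12, limma adjusted p = 0.28). Krt18, its type I partner, had 3.04, 3.57, 3.33, 3.33 and 3.33 in ShBNIP3 cells, against 3.37, 3.92, 3.53, 4.16 and 3.84 in ShCtrl cells. The groups overlapped, and the difference of -0.45 (SE 0.16) did not pass the test (limma adjusted p = 0.084). Of 15 alternative fits it passed only without ShCtrl array 1 (log2 -0.54, limma adjusted p = 0.041). It did not pass in the other 14, where the difference reached -0.35 and the limma adjusted p 0.18. Without arrays 4 and 10 the means were 3.32 in ShBNIP3 and 3.66 in ShCtrl. Krt19, the smallest type I keratin and a common marker of young nucleus pulposus, had 3.37, 3.68, 3.55, 3.26 and 3.47 in ShBNIP3 cells, against 3.28, 3.31, 3.18, 3.16 and 3.15 in ShCtrl cells. Its groups overlapped at the edge, and the difference of 0.25 (SE 0.11) did not pass either (limma adjusted p = 0.17). No fold is given for these 4 genes, because both groups were at background.

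RefSeq promoters of assembly GRCr8, 250 bases before to 50 after the annotated start, were found for 5 of the 10 genes: Tbxt, Krt8, Krt18, Cd24 and Basp1. The promoters of Krt8 and Krt18, which are neighbours on chromosome 7, and of Tbxt are shown because these genes gave no signal above background, and that of Basp1 because it was the 1 called gene with an entry. All are read 5′ to 3′ along the gene, and capitals mark TATAAA on either strand, whose matches overlap in Krt8.
Krt8, chr7:135010290-135010589, strand minus: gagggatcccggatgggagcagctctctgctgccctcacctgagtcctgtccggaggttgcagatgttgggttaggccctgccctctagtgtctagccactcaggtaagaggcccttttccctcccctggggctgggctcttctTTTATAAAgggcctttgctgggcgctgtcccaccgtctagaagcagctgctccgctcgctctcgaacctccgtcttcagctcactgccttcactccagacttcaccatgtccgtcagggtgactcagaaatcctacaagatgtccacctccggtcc
Krt18, chr7:135035918-135036217, strand plus: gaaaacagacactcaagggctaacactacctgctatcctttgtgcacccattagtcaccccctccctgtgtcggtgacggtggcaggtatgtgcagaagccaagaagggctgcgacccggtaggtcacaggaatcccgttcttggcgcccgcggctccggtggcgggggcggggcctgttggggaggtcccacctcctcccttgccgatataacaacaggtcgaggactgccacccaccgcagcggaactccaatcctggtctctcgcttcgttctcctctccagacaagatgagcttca
Tbxt, chr1:54853534-54853833, strand minus: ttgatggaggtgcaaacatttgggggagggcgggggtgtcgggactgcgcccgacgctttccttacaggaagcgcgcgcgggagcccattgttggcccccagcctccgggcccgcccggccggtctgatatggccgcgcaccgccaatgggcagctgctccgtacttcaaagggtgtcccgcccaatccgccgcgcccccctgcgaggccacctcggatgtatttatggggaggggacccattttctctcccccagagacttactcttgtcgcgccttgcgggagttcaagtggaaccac
Basp1, chr2:77594248-77594547, strand minus: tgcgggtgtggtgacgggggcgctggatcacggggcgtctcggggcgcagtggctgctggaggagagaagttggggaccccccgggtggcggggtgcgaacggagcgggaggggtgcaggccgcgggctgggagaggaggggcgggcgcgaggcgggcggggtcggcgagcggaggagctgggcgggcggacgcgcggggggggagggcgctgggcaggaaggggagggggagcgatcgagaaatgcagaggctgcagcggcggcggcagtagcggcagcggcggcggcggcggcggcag

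The windows differ in CpG content. Krt8 holds 10 CpG dinucleotides, Krt18 17, Tbxt 26, Cd24 34 and Basp1 40, where the median of 33469 promoters is 7. These 5 windows thus all exceed the median, with the highest counts in Cd24 and Basp1. Krt19, at background, and Cdh2, Car3 and Lgals3 have no window, so CpG content cannot be set against level here. The hypoxia response core (ACGTG or GCGTG, both strands), found in 41.6% of all promoters, occurs in the Cd24 window and in none of the other 4. TATAAA, in 14.2% of promoters, occurs in Krt8 alone of the 5, and the half-site that T-box factors such as brachyury bind (AGGTGT, both strands, 13.6% of promoters) in none of them. A match describes the letters of the window and is no evidence of binding.

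Cdh2 was the gene of the set that rose. It encodes N-cadherin, a calcium-dependent adhesion protein whose tail binds catenins. Its log2 values were 8.07, 7.57, 6.97, 6.88 and 6.99 on ShBNIP3 arrays 6 to 10, against 5.71, 6.03, 5.89, 5.84 and 5.76 on ShCtrl arrays 1 to 5. Every ShBNIP3 array was above every ShCtrl array and above its own background, by 0.15 to 1.41, while the ShCtrl arrays lay between -0.96 and -0.65 relative to background. Over all arrays, and at the background level used here, Cdh2 was thus at least 1.57-fold higher in ShBNIP3 cells. This bound sets the ShBNIP3 mean of 7.30 ± 0.51 over the background level of the ShCtrl arrays. The measured ShCtrl mean was 5.85 ± 0.13 (SD, n = 5 each). With 1 ShBNIP3 array left out, the bound lay between 1.37-fold (without array 6) and 1.69-fold (without array 9). Over the highest antigenomic probeset, or the 95th percentile of the negative controls, Cdh2 was not above background on all 5 ShBNIP3 arrays. No bound was computed at those levels. The fitted log2 difference was 1.45 (SE 0.21, limma adjusted p = 0.00052). Arrays 6 and 7 were the highest, and without array 6 the difference was 1.26 (limma adjusted p = 0.00040). Without arrays 4 and 10 the difference was 1.53 (limma adjusted p = 0.00060).

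Cd24, the surface glycoprotein used to sort nucleus pulposus cells, varied within both groups. It had 6.40, 6.46, 7.33, 7.33 and 7.54 on ShBNIP3 arrays 6 to 10, of which 3 were above background, and 7.09, 6.52, 7.37, 7.60 and 7.28 on ShCtrl arrays 1 to 5, of which 4 were. The groups overlapped over most of their range. The means were 7.01 ± 0.54 in ShBNIP3 and 7.17 ± 0.41 in ShCtrl (SD, n = 5 each), a difference of -0.16 (SE 0.26, limma adjusted p = 0.77). Its 95% interval ran from -0.72 to 0.40. Without array 10 the difference was -0.29 (limma adjusted p = 0.53), and without arrays 4 and 10 it was -0.19 (limma adjusted p = 0.69).

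Car3 fell in ShBNIP3 cells. Carbonic anhydrase 3 is a cytosolic enzyme abundant in skeletal muscle and fat, with weak hydratase activity and a known role against oxidative damage. Its log2 values were 10.84, 10.43, 10.48, 10.28 and 9.29 on ShBNIP3 arrays 6 to 10, against 11.84, 11.93, 11.58, 11.01 and 11.42 on ShCtrl arrays 1 to 5. The groups did not overlap, and arrays 10 and 4 held the lowest value of their groups. Car3 fell 2.45-fold, to 10.26 ± 0.58 in ShBNIP3, against 11.56 ± 0.37 in ShCtrl (SD, n = 5 each; log2 difference -1.29, SE 0.26, limma adjusted p = 0.0048). Without array 10 the difference was -1.05 (limma adjusted p = 0.0029), and without arrays 4 and 10 it was -1.19 (limma adjusted p = 0.00025). The order of Car3 and Lgals3 turns on array 10, since without it Lgals3 differed by -1.21, more than Car3.

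Lgals3 encodes galectin-3, a lectin that binds beta-galactoside sugars and acts inside and outside the cell. It had 15.32, 15.55, 15.64, 15.44 and 16.07 on ShBNIP3 arrays 6 to 10, against 16.52, 16.42, 16.74, 17.09 and 16.70 on ShCtrl arrays 1 to 5. The groups did not overlap, and here arrays 10 and 4 were the highest of their groups. Lgals3 fell 2.13-fold, to 15.60 ± 0.29 in ShBNIP3, against 16.69 ± 0.26 in ShCtrl (SD, n = 5 each; log2 difference -1.09, SE 0.17, limma adjusted p = 0.00077). All values lay at least 8.66 above the background of their arrays.

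Basp1, a protein of the inner face of the plasma membrane first found in growing nerve endings, fell least. Its log2 values were 8.22, 8.14, 8.03, 8.01 and 7.94 on ShBNIP3 arrays 6 to 10, against 8.49, 8.61, 8.39, 8.83 and 8.41 on ShCtrl arrays 1 to 5. The groups did not overlap, with the closest values 8.22 and 8.39. Basp1 fell 1.39-fold, to 8.07 ± 0.11 in ShBNIP3, against 8.55 ± 0.18 in ShCtrl (SD, n = 5 each; log2 difference -0.48, SE 0.12, limma adjusted p = 0.016). Without arrays 4 and 10 the difference was -0.37 (limma adjusted p = 0.040).

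Of the other genes used to recognise nucleus pulposus or notochord, Ncam1 and Vim fell and the rest did not pass the test. Of 21 listed, 19 were measured, with 6 above background in each group and 11 at background on all 10 arrays. Of the 19, 0 rose and 2 fell, where 8.87% of named genes rose and 8.27% fell. Without arrays 4 and 10 the counts were 0 and 3, where 11.3% rose and 10.9% fell. Of the genes at background, Shh, Noto, Foxa1 and Foxa2, the notochordal signal and transcription factors, are named after their values were seen. Ncam1, a neural cell adhesion molecule that notochordal cells also carry, fell 2.09-fold, with 15.93, 15.78, 15.22, 15.20 and 14.69 in ShBNIP3 cells, against 16.75, 16.68, 16.38, 16.06 and 16.27 in ShCtrl cells (limma adjusted p = 0.0063). Its groups did not overlap. Vim, the intermediate filament vimentin, fell 1.35-fold (limma adjusted p = 0.025), but its adjusted p passed 0.05 when any 1 of ShCtrl arrays 1, 2, 3 or 5 was left out (at most 0.057) and under quantile normalization (0.10). The median log2 difference of the list was -0.02.

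Sonic hedgehog is the signal by which notochord patterns its surroundings, and its pathway had no member that passed. Of 16 listed genes 11 were measured, with 5 above background in each group and 5 at background on all arrays. In limma 0 rose and 0 fell, where 8.87% of named genes rose and 8.27% fell. At an unadjusted limma p under 0.05 the counts were 0 and 2, where 2395 and 1989 of 15037 named genes rose and fell. Without arrays 4 and 10 they were 0 and 1 called, where 11.3% rose and 10.9% fell. Counts this small on 11 genes are not set apart from those shares. The list median was -0.02.

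Among proteins that keratins attach to, and other keratins, 1 of 11 rose and 2 fell, 3 in all, where 17.1% of named genes were called; a count this small on 11 genes is not set apart from that share. Plec (plectin), which ties intermediate filaments to other structures, fell 2.20-fold, to 11.49 ± 0.64 in ShBNIP3, against 12.63 ± 0.14 in ShCtrl (SD, n = 5 each; limma adjusted p = 0.0079). Its ShBNIP3 arrays 6 to 9 were at 10.79 to 11.62, and array 10 at 12.44 lay near the lowest ShCtrl array (12.50). Evpl (envoplakin) also passed the test as lower (limma adjusted p = 0.0014), but it was at background on every ShBNIP3 array and above it on ShCtrl array 4 alone, so no size is given. Ppl (periplakin) rose by 0.97 (limma adjusted p = 0.035), above background on 5 ShBNIP3 and 2 ShCtrl arrays, and its adjusted p passed 0.05 when any 1 of arrays 1, 3, 5, 6 or 9 was left out (at most 0.087).

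**Figure D3:**
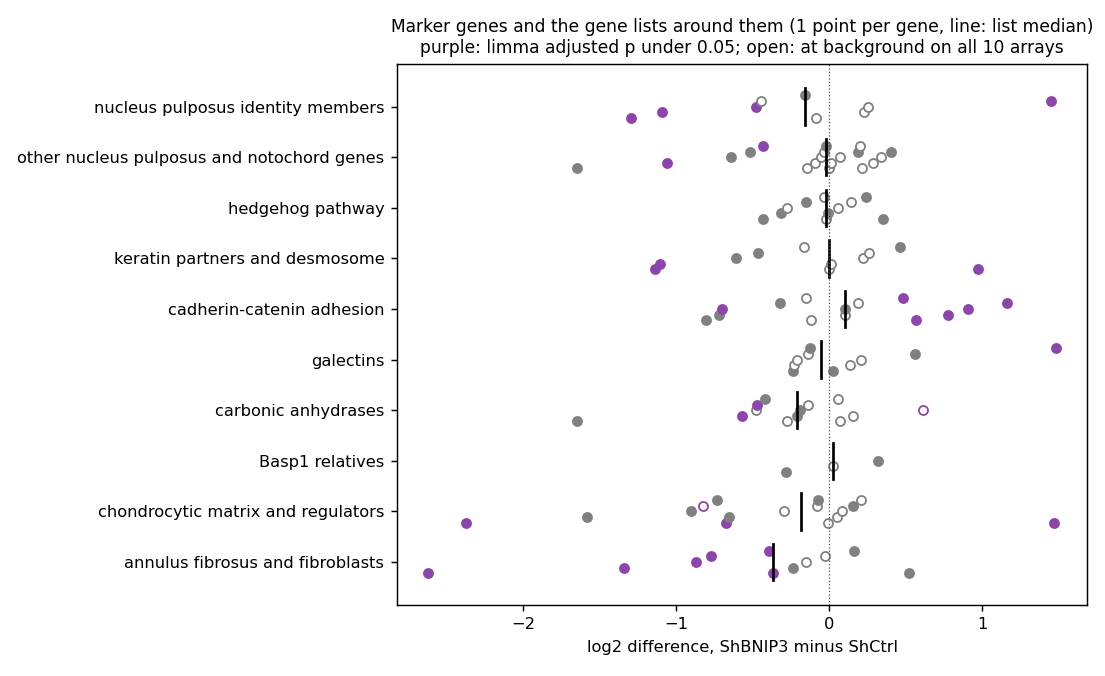
Log2 difference, ShBNIP3 minus ShCtrl (x axis), of each measured gene of the marker set and of 9 related gene lists (rows), with the list median as a line. Purple points passed the limma test and open points were at background on all 10 arrays; the points for keratins and Tbxt are open, and Cdh2, Lgals3bp and Hapln1 are the purple points furthest to the right.

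Genes of cadherin adhesion moved in both directions, with 5 of 14 up and 1 down, where 8.87% of named genes rose and 8.27% fell. In this list 10 of 14 were above background on every array of a group. Of all such named genes 30.2% were called in either direction, and the list was not tested against that share. Without arrays 4 and 10 the counts were 5 and 3, where 11.3% rose and 10.9% fell. Afdn (afadin), which couples nectins to actin, rose 2.24-fold (log2 1.16, SE 0.26, limma adjusted p = 0.0090). It was above background on 5 ShBNIP3 and 2 ShCtrl arrays. Adam10, the protease that sheds N-cadherin, rose 1.71-fold (limma adjusted p = 0.00082). Cdh13, a cadherin without a catenin-binding tail, rose 1.88-fold (limma adjusted p = 0.031), though its adjusted p passed 0.05 when any 1 of arrays 1, 2, 3, 5, 7 or 10 was left out (at most 0.079). Ctnna1 (alpha-catenin), which links cadherin complexes to actin, fell 1.63-fold, to 13.20 ± 0.20 in ShBNIP3, against 13.91 ± 0.28 in ShCtrl (SD, n = 5 each; limma adjusted p = 0.0083). The list median was 0.11.

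Relatives of Lgals3, Car3 and Basp1 are read against the 17.1% of named genes that were called. At an unadjusted limma p under 0.05, 2395 of 15037 named genes rose and 1989 fell. Of 10 galectin-related genes other than Lgals3, 1 rose and 0 fell, by the adjusted and by the unadjusted limma p. That gene, Lgals3bp, encodes a secreted ligand of galectin-3 and rose 2.80-fold, to 12.60, 12.65, 12.55, 12.75 and 11.18 on ShBNIP3 arrays 6 to 10, against 11.33, 11.29, 10.94, 9.79 and 10.97 on ShCtrl arrays 1 to 5 (limma adjusted p = 0.0094). Array 10 alone overlapped the ShCtrl arrays. Of 13 carbonic anhydrases other than Car3, 1 rose and 2 fell. Without arrays 4 and 10 the counts were 1 and 4, with 22.2% of named genes called. Car9, the tumour- and hypoxia-associated enzyme of the cell surface, fell 1.39-fold, to 15.90 ± 0.08 in ShBNIP3, against 16.38 ± 0.19 in ShCtrl (SD, n = 5 each; limma adjusted p = 0.016). Car6, a secreted form, passed the test as lower near the background level, with 6.36 ± 0.32 in ShBNIP3, above background on 1 array, against 6.93 ± 0.17 in ShCtrl, above it on 4 (SD, n = 5 each; limma adjusted p = 0.028; above 0.05 without any 1 of arrays 1, 2, 3, 5 or 9, at most 0.068). Car2 rose within the background range (limma adjusted p = 0.018, and 0.051 without array 1). Of the 3 Basp1 relatives, 0 were called, and 0 had an unadjusted p under 0.05 in limma.

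Chondrocytic genes, which nucleus pulposus shares with cartilage, had 1 of 16 up and 3 down, where 8.87% of named genes rose and 8.27% fell. Without arrays 4 and 10 the counts were 1 and 6, where 11.3% rose and 10.9% fell. In the list 6 genes were above background in ShBNIP3 and 7 in ShCtrl cells. Fmod (fibromodulin), a collagen-binding proteoglycan, fell 5.18-fold, to 10.41, 10.83, 9.82, 9.54 and 11.65 in ShBNIP3 cells, against 13.08, 12.97, 12.14, 13.51 and 12.41 in ShCtrl cells (limma adjusted p = 0.00086). Its groups did not overlap. Col2a1, the main collagen of cartilage and nucleus pulposus, fell 1.59-fold (limma adjusted p = 0.013), and Comp fell within the background range (limma adjusted p = 0.0080). Hapln1, the link protein that fixes aggrecan to hyaluronan, rose 2.77-fold (limma adjusted p = 0.026), with an adjusted p over 0.05 when any 1 of arrays 3, 5, 6, 7, 8 or 9 was left out (at most 0.068) and with a trended and robust variance (0.057).

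**Figure D4:**
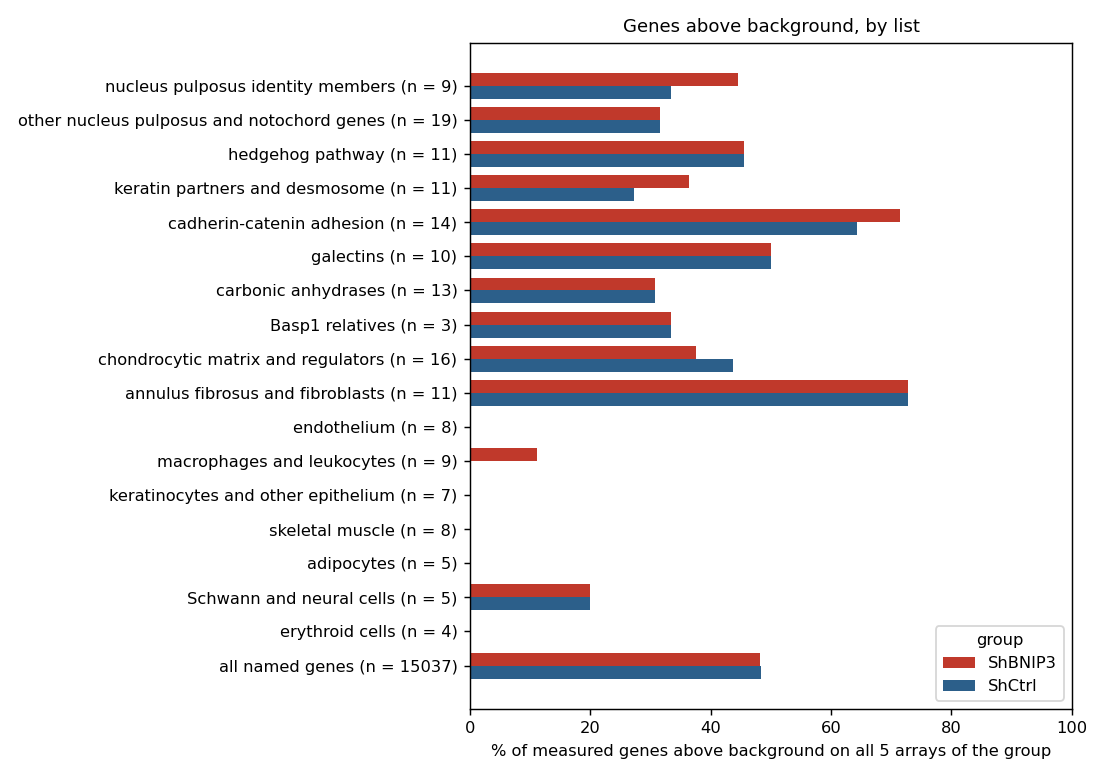
Share of measured genes (x axis, percent) that were above background on all 5 arrays of ShBNIP3 (red, upper bar) and ShCtrl (blue, lower bar), for the marker set, 16 further lists and all named genes. The annulus fibrosus and fibroblast list has 8 of 11 above background in each group, and endothelial, epithelial, muscle, fat and erythroid lists have 0.

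Markers of other cells moved beside these results in part, and their share in them was not tested. Annulus fibrosus and fibroblast genes were above background for 8 of 11 in each group, and 6 fell and 0 rose, where 8.27% and 8.87% of named genes did. These shares are over all named genes, of which 44.5% were at background on all 10 arrays. Of named genes above background on every array of a group, 30.2% were called in either direction, and the list was not tested against that share. Without arrays 4 and 10, 5 fell and 0 rose, where 10.9% and 11.3% did. At an unadjusted limma p under 0.05, 6 fell and 0 rose, where 1989 and 2395 of 15037 named genes did. The list mean was 11.33 to 11.57 on ShBNIP3 arrays and 11.94 to 12.15 on ShCtrl arrays. Sfrp2, a secreted Wnt modulator, fell 6.14-fold (limma adjusted p = 0.0019), Fbln1 (fibulin-1) 1.83-fold (limma adjusted p = 0.0011) and Thy1 1.71-fold (limma adjusted p = 0.0053). The fall of Sfrp2 was uneven, with ShBNIP3 arrays 6 to 9 at 8.29 to 9.28 and array 10 at 11.28, near the lowest ShCtrl array (11.42). Cilp was at background in ShBNIP3 and above it on 2 ShCtrl arrays, and passed the test as lower (limma adjusted p = 0.0054). A bound of at least 1.12-fold rested on ShCtrl array 4, and without that array no bound remained, the ShCtrl mean of 6.57 lying under the background level of 6.70. The called genes of this list and Car3, Lgals3 and Basp1 were lower, while Cdh2 was higher, and a link was not tested. Of the 5 genes not called, Pdgfra (log2 difference 0.52) and Ogn (0.16) were above background on every array with positive differences. Scx (-0.23), Tnmd and Pi16 had negative ones.

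Markers of cell types that express members of the set themselves were at background with few exceptions. Of 8 skeletal muscle and 5 fat markers, both sources of Car3, all were at background on all 10 arrays, with list means of 4.56 to 4.76 and 4.65 to 4.85 on ShBNIP3 arrays and 4.40 to 4.69 and 4.33 to 4.57 on ShCtrl arrays. The same held for 7 of 7 epithelial markers, a source of the keratins, and 8 of 8 endothelial markers. Of all named genes 44.5% were at background on all 10 arrays. A link of these markers to Car3 or the keratins was not tested. Myh2 of the muscle list and Fabp4 of the fat list passed the test within the background range (limma adjusted p = 0.047 and 0.015), and Myh2 did not when any 1 of arrays 1, 2, 3, 5, 6, 8, 9 or 10 was left out (at most 0.11), nor under quantile normalization, a trended and robust variance or without arrays 4 and 10. Macrophages carry galectin-3, and of 9 leukocyte markers 8 were at background on all arrays, including Ptprc, Csf1r and Itgam, named after their values were seen. Cd68, a lysosomal protein that other cells also make, was above background on 5 ShBNIP3 and 4 ShCtrl arrays and rose 2.83-fold (limma adjusted p = 0.0018), and Cd53 rose within the background range (limma adjusted p = 0.015). The list mean was 4.17 to 4.48 on ShBNIP3 arrays and 3.86 to 4.24 on ShCtrl arrays. It is made up mostly of values at background, and a link to Lgals3 was not tested. Erythroid markers were at background for 4 of 4, and 4 of 5 Schwann and neural markers.

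Genes whose profile over the 10 arrays was closest to each fallen gene were found among the 7020 other named genes above background on every array, as the root mean square difference of log2 values centred on each gene's mean. For Car3 these were the small GTPase Rhoj (0.19), the secreted protein Srpx (0.20) and Ncam1 (0.23). For Lgals3 they were Rcor2 (0.18), Pip5k1a (0.18) and Acly (0.19), and for Basp1 they were Rfc1 (0.097), Stk35 (0.10) and the collagen chain Col5a1 (0.11). All 9 passed the test as lower, which a choice by likeness favours. Rfc1 lost its call without array 7 or 9, Stk35 without any 1 of arrays 1, 2, 4, 5, 8 or 9 and Col5a1 without any 1 of arrays 2, 5, 8 or 9, with adjusted p at most 0.055, 0.074 and 0.063. All 3 also lost it without arrays 4 and 10 together, where the adjusted p of Rfc1 was 0.061.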

How the data were processed

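Total RNA was labelled with the GeneChip WT Plus kit and hybridised to whole-transcript arrays, 1 array per sample, per the labels. The deposited values are log2 expression values that the authors obtained by sst-rma normalization, per the labels. Per the submitters' processing notes the software was Transcriptome Analysis Console, whose version, like the genome build, is not given in the sources used here. Part of the extraction text in the labels describes mouse disc tissue, which these samples are not.

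The values were used as deposited. Of 24834 probesets, 1646 controls were left out of the tests, and 15049 of the other 23188 carry a gene symbol (15037 genes; 0 symbols changed when updated through Entrez identifiers to GRCr8). ShBNIP3 minus ShCtrl was tested with limma 3.58.1 in R 4.3.3 over all 23188 probesets, tested on simulated data first, with Benjamini-Hochberg adjustment at 0.05 and a 95% interval per difference. For several probesets, the brightest stood for the gene. Where 1 group was at background on all its arrays, the fold is a bound against the background level. The number of arrays limits the precision.

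The members and the 16 further lists were chosen with earlier results of these data known. Named genes are all members, the 4 largest called differences of each list, Bnip3 as a check, and the 3 nearest profiles of each member above background on all arrays. Alternatives were another scaling (array medians, quantiles), a trended and robust variance, array weights, a filter on dim probesets, other background levels, and leaving out arrays.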

Additional observations from a re-analysis of the deposited data

Results flagged for a closer look

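For each of the 43 named genes, each group of 5 arrays was checked for a highest or lowest array whose gap to the next, divided by the group's range, passed Dixon's 95% critical value of 0.71. Of 86 groups, 8 passed, where chance gives about 1 in 20. None of the 9 marker genes was among them. The 8 lay on ShCtrl array 4 (5 of them) and ShBNIP3 array 10 (3).

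ShCtrl array 4 was highest for Cdh13 (14.06, with the next array at 13.18, ratio 0.735), Cilp (8.07 and 6.66, ratio 0.892) and Evpl (6.71 and 6.25, ratio 0.750). It was lowest for Ctnna1 (13.40 and 14.00, ratio 0.914) and Lgals3bp (9.79 and 10.94, ratio 0.750). ShBNIP3 array 10 was lowest for Lgals3bp (11.18 and 12.55, ratio 0.878) and highest for Ppl (8.45 and 7.26, ratio 0.777) and Rcor2 (7.36 and 7.08, ratio 0.798).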

How the results depend on the processing

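The calls of Cdh2, Car3, Lgals3 and Basp1 kept their direction and stayed under an adjusted p of 0.05 in all 16 other fits, at most 0.0022, 0.015, 0.0032 and 0.042. The count of members higher was 1 in each fit, and that of members lower 3 in each but 1: with any 1 array left out it was between 3 and 4, the 4 with Krt18 without ShCtrl array 1. The count of probesets called, 3590, was between 2746 and 3960 with 1 array left out, 4595 with array weights and 4622 without arrays 4 and 10. Tbxt turned from -0.08 to 0.0022 without arrays 4 and 10 (adjusted p = 0.99), and neither value passed the test. Each member has 1 probeset, so the choice among several changed nothing for them, and Tbxt, Cd24 and the keratins drop out under the filter on dim probesets.

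The number of members above background depends on the control probesets used. Against the 1153 probesets named as negative controls, an alternative chosen after seeing the data, 2 members (Car3 and Lgals3) were above the 95th percentile in ShBNIP3 and 2 in ShCtrl, and 5 were above the median in each group, Cdh2 in ShCtrl among them. Against the antigenomic probesets the count was 5 in ShBNIP3 and 4 in ShCtrl over their median. On at least 3 of 5 arrays it was also 5 and 4. Over the highest antigenomic probeset the count was 3 in each, and Cdh2 was not counted in ShBNIP3. Without 1 array it was 4 in ShBNIP3 and between 3 and 4 in ShCtrl. Tbxt and the keratins were not counted as above background under any of these rules, and a bound such as that of Cdh2 moves with the level chosen. No paired analysis was possible because the groups share no replicate number.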
